A study of Rattus norvegicus with 8 samples.

Results

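Acute-phase proteins are plasma proteins that hepatocytes make and whose output changes when tissue is injured or inflamed. Interleukin-6 from macrophages reaches hepatocytes through its receptor and the shared chain Il6st, STAT3 is activated, and STAT3 acts with C/EBP factors on the genes of the positive acute-phase proteins, while Socs3 is induced as a brake. Albumin, a negative acute-phase protein, is made less during the response, and in the rat A2m, which is nearly silent in the healthy adult liver, is among the strongest responders. Expression of 10 genes of this class, A2m, Orm1, Hp, Fga, Fgb, Fgg, Crp, Hpx, Lcn2 and Alb, was examined in hepatocytes and hepatocytic progenitors of regenerating rat livers. The genes were selected by name from the gene names that the array annotation gives to its non-control spots. They were covered by 13 of the 45598 distinct probes, and all 13 were among the 23111 probes bright enough to be tested.

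The animals were F344 rats treated with retrorsine (Ret), which keeps mature hepatocytes from dividing, and partial hepatectomy (PH), so that the liver regrows from clusters of small hepatocyte-like progenitor cells (SHPCs). Per the methods, female recipients of the DPPIV- strain received 2 injections of Ret at an interval of 2 weeks and PH 2 weeks after the last one, whereas the sample labels give the strain as DPPIV+; the age of the recipients was not given in the sources used here. Mature hepatocytes (MHs, 2 samples) and control SHPCs (3 samples) were labelled as cut from control recipient livers, and the third group was SHPCs of livers into which bone marrow mesenchymal cells (BM-MCs), grown from the marrow of a male DPPIV+ donor aged 5 weeks, had been infused through the spleen (3 samples). Recipient livers were taken 14 days after transplantation. Cells were cut from hematoxylin-stained frozen sections of 7 μm by laser microdissection, and 100 ng of RNA a sample was labelled for a 1-colour array. Which samples came from the same animal is not stated, so p-values reflect only how far these samples varied, part of which may be technical. The recipients kept their own hepatocytes, Kupffer cells and endothelium.

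Values below are log2 levels, that is, log2 of a spot's processed signal over the 75th percentile of its array, so that 0 marks the 75th percentile. Where a gene had several probes, the brightest one was used unless stated otherwise, and levels were not compared between genes. Between 57.0% and 61.5% of marked spots were well above background on each array. Among the spots that carried marks 0 were marked as saturated, although the highest processed signal of MH replicate 2, at 814395.5, lay above the scanner's saturation value of 778381. The scanner file of control SHPC replicate 2 is incomplete, with marks for 19479 of 58717 spots, so its signals came from the deposited value table and its background marks were not used. The slide held a first array set with both MHs and control SHPC replicates 1 and 2, and a second with the remaining control and every BM-MC sample. Beside the hepatocyte label 10 hepatocyte markers were read, none of them an acute-phase gene. All 10 were above background on all 7 arrays with complete marks and their mean log2 level lay between 3.73 and 4.25 in the 8 samples. All 9 macrophage, all 8 stellate cell and all 3 erythroid markers were above background on the same arrays. Detection therefore cannot verify the label, and single hepatocyte markers differed between groups in both directions, as given below.

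A2m, which encodes the proteinase inhibitor α2-macroglobulin, had the widest range of group means among the 10 genes, 3.74 log2 units, and 99.9% of all tested probes had a narrower one. The sequence of its dimmer probe is printed because A2m carries the main difference described here. The 60 bases are spread over 464 bases of the array annotation at chr4:158152488-158152951 on the plus strand, so that they cross at least 1 splice junction. The file header names rn4 for the array grid, and whether the coordinates follow that build was not checked.

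A2m probe: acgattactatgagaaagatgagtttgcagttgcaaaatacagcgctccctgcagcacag

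The log2 level of A2m was -4.04 and -2.27 in MH replicates 1 and 2. It was 0.89, 1.06 and -0.22 in control SHPC replicates 1 to 3, and -2.30, -0.62 and 0.42 in the SHPC replicates with BM-MCs. Every control SHPC sample was above both MHs, whereas BM-MC replicate 1 was level with MH replicate 2 and BM-MC replicate 3 was above control SHPC replicate 3. On the unscaled signal the same samples ran from 90.7 in MH replicate 1 to 3635 in control SHPC replicate 2. The printed probe gave log2 levels of -4.44 and -2.79 in MHs, 0.38, 0.61 and -0.55 in control SHPCs and -2.69, -1.12 and -0.05 with BM-MCs. The brighter probe exceeded it by 0.34 to 0.52 log2 units in all 8 samples, so that both probes gave the same order of the groups.

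**Figure D1:**
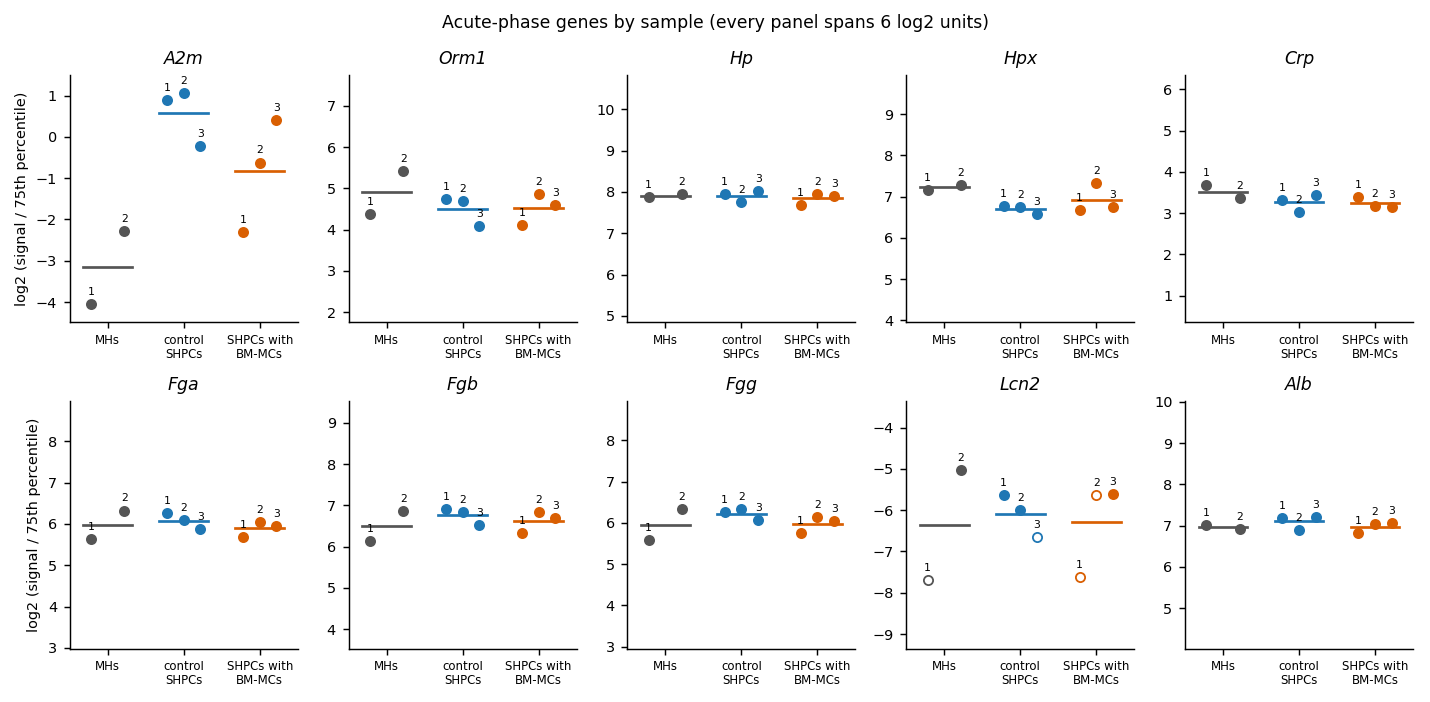
Log2 level of the 10 acute-phase genes (y axis, log2 of signal over the array's 75th percentile; every panel spans 6 units) in MHs, control SHPCs and SHPCs with BM-MCs (x axis). Points are samples with their replicate number, bars are group means, and open points were not well above background (control SHPC replicate 2 has no mark for 6 of the genes and is drawn filled); A2m runs from -4.04 to 1.06, while Hp stays between 7.68 and 8.01.

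Control SHPCs held A2m at a mean log2 level of 0.58 ± 0.69 (SD, n = 3), against -3.16 ± 1.25 (SD, n = 2) in MHs. The log2 difference was 3.74 (standard error 0.85), or 13.3-fold, with a 95% interval from 3.38-fold to 52.5-fold, and it missed the threshold after adjustment for every probe tested (adjusted p = 0.101 from limma). The printed probe gave 3.76 (adjusted p = 0.0865 from limma). With the spread modelled as a function of intensity the adjusted p from limma was 0.0382, and over the 21 alternatives to limma's main setting it ran from 0.0382 to 0.383, with differences from 2.85 without MH replicate 1 to 4.62 without MH replicate 2. In the first array set alone, with 2 samples of each group, the difference was 4.13.

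SHPCs with BM-MCs stood between the other groups, at -0.84 ± 1.37 (SD, n = 3). Their difference from control SHPCs was -1.41 (standard error 0.71, adjusted p = 0.368 from limma), a level 2.67-fold lower with a 95% log2 interval from -3.13 to 0.31. That from MHs was 2.32 (standard error 0.85, adjusted p = 0.335 from limma), or 5.0-fold, with an interval from 1.27-fold to 19.7-fold. In this order of levels, neither pair of neighbours, control SHPCs and SHPCs with BM-MCs or SHPCs with BM-MCs and MHs, passed adjustment, and the samples of each pair overlapped at the brighter probe. At the printed probe SHPCs with BM-MCs and MHs did not overlap, with a lowest BM-MC level of -2.69 and a highest MH level of -2.79. Such separation was found in 32.3% of all probes. Single samples moved both differences of the brighter probe. The difference from control SHPCs was -0.68 without BM-MC replicate 1 and -2.04 without BM-MC replicate 3, and -0.62 in the second array set alone, where control SHPC replicate 3 is the lone control. The difference from MHs was 1.44 without MH replicate 1 and 3.21 without MH replicate 2, against 1.70 to 3.05 when a BM-MC sample was left out. With the array set as a block it was 3.52. MHs and BM-MC samples shared no array set, so the blocked value is bridged by the control SHPCs, of which replicate 3 alone is in the second set. The pooled SD of A2m within groups, 1.12 log2 units, was larger than that of 99.0% of the tested probes, whose median was 0.21.

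Genes whose pattern over the 8 samples was most like that of A2m were sought by the root mean square difference between log2 levels, each probe centred on the mean of its 3 group means. The 5 nearest were Pclaf at 0.55, Cenpw at 0.57, Depdc1 at 0.57, Kntc1 at 0.62 and Cep72 at 0.63 log2 units, against a median of 1.75 over the probes compared and 0.06 for the other A2m probe. Pclaf encodes a partner of the replication clamp PCNA, Cenpw a centromere protein, Kntc1 a kinetochore protein and Cep72 a centrosomal protein. Cenpw was above background on all 7 arrays with complete marks, while Depdc1 and Cep72 were not well above background in either MH and Pclaf and Kntc1 were not in MH replicate 1. In BM-MC replicate 1 A2m lay at -1.16 relative to its centre and the 5 genes lay higher, between -0.23 and 0.11.

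**Figure D2:**
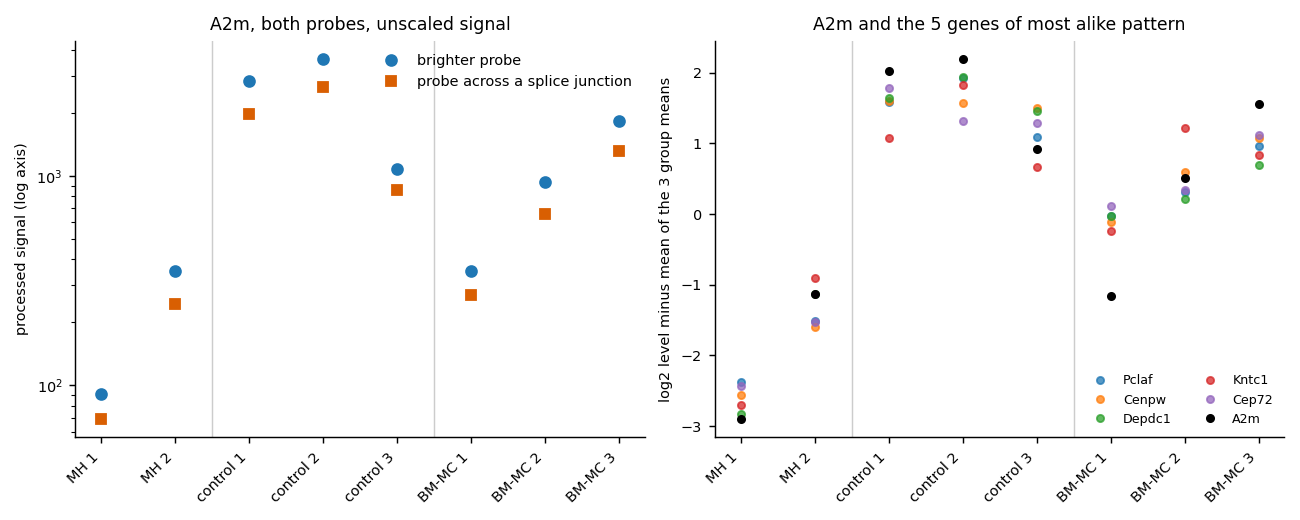
Left, unscaled processed signal of both A2m probes (log y axis) in the 8 samples; right, log2 level relative to the mean of the 3 group means for A2m (black) and the 5 genes of most alike pattern. Both probes are lowest in MH replicate 1 (90.7 and 68.8) and highest in control SHPC replicate 2 (3635 and 2658), and A2m sits below the other 5 genes in BM-MC replicate 1.

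Orm1 encodes α1-acid glycoprotein, a carrier of lipophilic molecules in plasma. Its log2 level was 4.37 and 5.43 in MHs, 4.73, 4.68 and 4.09 in control SHPCs and 4.12, 4.87 and 4.60 with BM-MCs. The MHs lay on both sides of 4 of the 6 SHPC samples, and the groups overlapped. The log2 difference of control SHPCs from MHs was -0.40 (standard error 0.37, adjusted p = 0.576 from limma), and that of SHPCs with BM-MCs from control SHPCs was 0.03 (standard error 0.26, adjusted p = 0.968 from limma).

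Hp encodes haptoglobin, which binds free haemoglobin, and Hpx encodes hemopexin, which binds haem. The log2 level of Hp lay between 7.68 and 8.01 in all 8 samples, its range of group means was 0.07, and only 3.1% of tested probes had a narrower one. That of Hpx was 7.16 and 7.28 in MHs, 6.76, 6.75 and 6.58 in control SHPCs and 6.66, 7.34 and 6.75 with BM-MCs. Both MHs were above every control SHPC sample in Hpx, and BM-MC replicate 2 alone among the SHPCs reached the MHs. The log2 difference in Hpx of control SHPCs from MHs was -0.53 (standard error 0.21), or 1.44-fold lower, and did not pass (adjusted p = 0.239 from limma). With BM-MCs the difference was 0.22 from control SHPCs (adjusted p = 0.594 from limma) and -0.31 from MHs (adjusted p = 0.542 from limma).

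Fga, Fgb and Fgg encode the α, β and γ chains of fibrinogen, which hepatocytes assemble into the clotting protein. The genes lie side by side on chromosome 2. The log2 level of Fga was 5.64 and 6.33 in MHs, 6.27, 6.09 and 5.89 in control SHPCs and 5.69, 6.05 and 5.94 with BM-MCs. Fgb was at 6.15 and 6.86 in MHs, 6.92, 6.84 and 6.53 in control SHPCs and 6.32, 6.85 and 6.69 with BM-MCs. Fgg was at 5.58 and 6.32 in MHs, 6.27, 6.33 and 6.06 in control SHPCs and 5.76, 6.14 and 6.03 with BM-MCs. On these scaled levels all 3 chains were lowest in MH replicate 1 and next lowest in BM-MC replicate 1, and the groups overlapped for each chain. On the unscaled signal Fga was lowest in control SHPC replicate 3 (74271, against 74372 in MH replicate 1). BM-MC replicate 1 was then above control SHPC replicate 3 for every chain.

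Relative to the mean of the 3 group means, the chains averaged -0.43 in MH replicate 1 and 0.28 in MH replicate 2, a gap of 0.72 log2 units between samples of the same group. They averaged 0.27, 0.20 and -0.06 in control SHPC replicates 1 to 3 and -0.30, 0.12 and -0.00099 in the BM-MC replicates. Within a sample the chains lay closest together in BM-MC replicate 1, from -0.31 to -0.29, and farthest apart in control SHPC replicate 2, from 0.10 to 0.28. Control SHPCs differed from MHs by 0.10 to 0.27 log2 units and SHPCs with BM-MCs differed from control SHPCs by -0.24 to -0.14, with adjusted p from limma between 0.426 and 0.840 over these 6 differences. The gap between the MHs was larger than each of these differences. Of the 10 genes, 8 were higher in MH replicate 2 than in MH replicate 1, and 9 had their lowest BM-MC value in BM-MC replicate 1. The latter count depends on the scaling, since the 75th percentile was 1736 in BM-MC replicate 1 and 1434 and 1366 in replicates 2 and 3. On the unscaled signal Alb was highest of the BM-MC samples in replicate 1, and Hp, Hpx, Fga and Fgg were in the middle there. A2m, Orm1, Fgb and Lcn2 were still lowest in it.

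**Figure D3:**
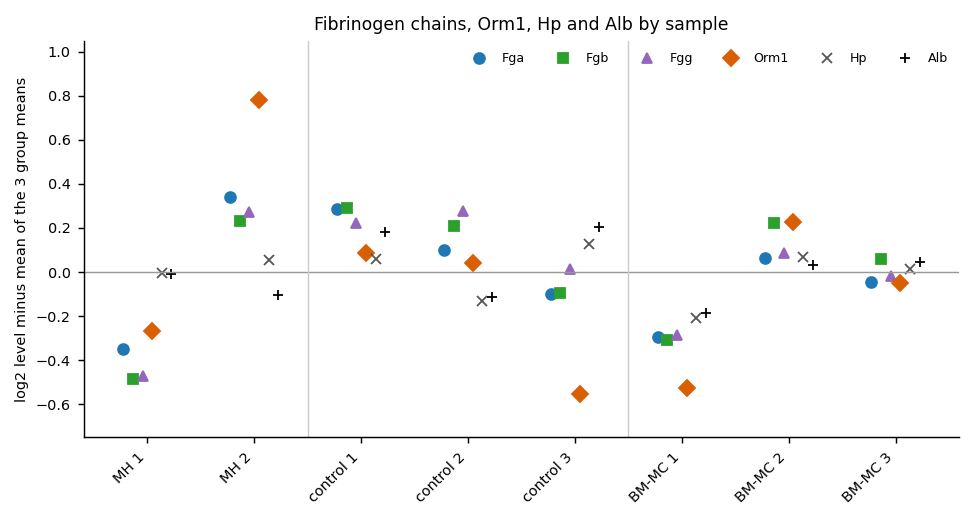
Log2 level relative to the mean of the 3 group means (y axis) of the fibrinogen chains, Orm1, Hp and Alb in each of the 8 samples (x axis; points are samples, set side by side for legibility). The fibrinogen chains are lowest in MH replicate 1 (mean -0.43), and Orm1 reaches 0.78 in MH replicate 2.

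Because the scaled levels of the fibrinogen chains varied together, the 250 bases upstream of each start are shown, from RefSeq on the GRCr8 assembly, read 5′ to 3′ toward the gene. Capitals mark matches on either strand to the STAT motif TTCNNNGAA, the interleukin-6 response core CTGGGAA (which can overlap the STAT motif), the C/EBP motif TTNNGCAA and the HNF1 motif GTTAAT. The windows are chr2:170671919-170672168 on the plus strand for Fga (the upstream one of its 2 listed starts), chr2:170700876-170701125 on the minus strand for Fgb and chr2:170652833-170653082 on the plus strand for Fgg.

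Fga: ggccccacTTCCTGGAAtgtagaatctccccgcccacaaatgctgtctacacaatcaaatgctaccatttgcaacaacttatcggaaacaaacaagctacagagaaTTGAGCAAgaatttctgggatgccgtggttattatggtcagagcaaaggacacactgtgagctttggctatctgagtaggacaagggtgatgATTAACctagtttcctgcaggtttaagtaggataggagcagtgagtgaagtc
Fgb: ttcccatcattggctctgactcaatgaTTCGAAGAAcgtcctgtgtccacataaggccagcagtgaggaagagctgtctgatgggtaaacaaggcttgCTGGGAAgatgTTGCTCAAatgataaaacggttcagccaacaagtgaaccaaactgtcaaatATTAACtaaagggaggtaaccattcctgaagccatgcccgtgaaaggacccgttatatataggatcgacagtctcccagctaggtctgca
Fgg: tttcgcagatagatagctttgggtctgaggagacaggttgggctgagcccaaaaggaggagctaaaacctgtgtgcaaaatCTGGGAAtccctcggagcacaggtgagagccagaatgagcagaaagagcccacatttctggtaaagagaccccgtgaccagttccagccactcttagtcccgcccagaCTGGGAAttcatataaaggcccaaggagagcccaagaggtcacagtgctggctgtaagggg

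In these windows Fgb held a match to each of the 4 motifs, Fga held STAT, C/EBP and HNF1 matches, and Fgg held 2 matches to the interleukin-6 response core, the nearer one 61 bases before the start. In the full 300-base windows, which end 50 bases after the start, 8 of the 10 genes had an entry, and A2m and Hp had none. STAT matches were found in 2 of the 8, interleukin-6 cores in 3, C/EBP matches in 6 and HNF1 matches in 3. Over all 33469 promoter windows the shares were 8.87%, 11.3%, 10.6% and 7.45%. Crp held none of these letters in its window. A match describes sequence only and was not related to the measured levels.

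The Fga probes are printed because they did not move alike. The brighter one, at chr2:174751982-174752041 of the array annotation, matches both RefSeq variants of Fga, and the other, at chr2:174753332-174753391, is assigned to 1 variant only.

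Fga, both variants: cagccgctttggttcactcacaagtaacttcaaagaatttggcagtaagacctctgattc
Fga, 1 variant: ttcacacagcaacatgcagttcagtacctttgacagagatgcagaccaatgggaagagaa

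The log2 level of the variant probe was 2.57 and 3.32 in MHs, 3.67, 3.56 and 3.36 in control SHPCs and 3.07, 3.96 and 3.49 with BM-MCs. The brighter probe exceeded it by 3.01 to 3.07 log2 units in MHs, 2.53 to 2.60 in control SHPCs and 2.09 to 2.62 with BM-MCs, so that MHs and SHPCs did not overlap in this offset. Offsets that set MHs apart from all SHPCs were seen in 12.8% of the 4007 probe pairs of the same gene on the array, and nothing was tested here. The variant probe itself differed by 0.59 between control SHPCs and MHs (standard error 0.30, adjusted p = 0.332 from limma). The offset of the A2m probes overlapped between all groups. That of the Alb probes was 0.34 to 0.64 in MHs and 0.26 to 0.32 in control SHPCs, with the BM-MC samples, at 0.20 to 0.52, across both.

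Crp encodes C-reactive protein, which in the rat is abundant in plasma without injury. Its log2 level was 3.68 and 3.36 in MHs, between 3.03 and 3.43 in control SHPCs and between 3.15 and 3.38 with BM-MCs. The log2 difference from MHs was -0.26 for control SHPCs (adjusted p = 0.428 from limma) and -0.29 with BM-MCs (adjusted p = 0.489 from limma). Both intervals included 0, and MH replicate 2 lay within the range of the control SHPCs.

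Alb encodes albumin, the main plasma protein. Its brightest probe, spotted 10 times on each array, lay at 7.01 and 6.91 in MHs, between 6.90 and 7.22 in control SHPCs and between 6.83 and 7.06 with BM-MCs. The log2 difference of SHPCs with BM-MCs from control SHPCs was -0.13 with a 95% interval from -0.46 to 0.21 (adjusted p = 0.663 from limma). That of control SHPCs from MHs was 0.15 with an interval from -0.20 to 0.49 (adjusted p = 0.614 from limma). Its second probe gave -0.22 and 0.34 (adjusted p = 0.520 and 0.380 from limma).

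Lcn2 encodes lipocalin 2, an iron-siderophore binder made by hepatocytes in the acute phase and stored in neutrophil granules. Its probe was dim, at unscaled signals from 7.27 to 52.2, and passed the brightness filter with the least number of arrays allowed, 3 of 7 (MH replicate 2, control SHPC replicate 1 and BM-MC replicate 3). Its log2 level was -7.68 and -5.02 in MHs, -5.62, -5.99 and -6.64 in control SHPCs and -7.62, -5.62 and -5.62 with BM-MCs. Replicates of a group spanned up to 2.66 log2 units, and no difference between groups was detectable at this signal (adjusted p from 0.880 to 0.981 from limma in the 3 comparisons). Granulocyte markers were measured beside it. Of 11 listed, 3 were bright enough to be tested, and Mpo, Elane, Ngp, Camp, Csf3r, Mmp8, Cxcr2 and Ltf were not. The mean log2 level of those tested was -3.39 and -1.58 in MHs, between -2.04 and -1.48 in control SHPCs and between -3.46 and -3.14 with BM-MCs. The MHs stood in the same order as for Lcn2, as they did for most of the 10 genes, but among the BM-MC samples the markers were at -3.36, -3.46 and -3.14, lowest in replicate 2, where Lcn2 was not. The part of granulocytes in the Lcn2 signal was not tested.

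Transplantation was the question of the comparison of SHPCs with BM-MCs against control SHPCs. None of the 10 genes passed an adjusted p under 0.05 in limma, where 0.0216% of all tested probes did. That share rests on 5 probes, and it was unsteady: some limma alternatives called 0 probes, and leaving out control SHPC replicate 3 gave 490 calls upward and 40 downward. At an unadjusted p under 0.05 limma also gave 0 of 10, with 16.6% of all probes, and the methods' t-test gave 0 of 10 without adjustment, with 15.0% of all probes. The groups overlapped for all 10 genes, whereas they did not for 24.7% of all probes. In sign, 2 genes were higher and 8 lower, though Orm1 turned lower with median scaling and Crp higher with quantile normalization, and the median log2 difference of the 10 was -0.13 beside 0.02 over all tested probes. For 8 genes, those other than A2m and Lcn2, every 95% interval lay between -0.60 and 0.70 log2 units with the main scaling. With median scaling the differences were lower, in Fgg -0.43 against -0.24, so these bounds do not carry over to it.

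For control SHPCs against MHs, which sets progenitors beside mature cells of untransplanted livers, 0 of 10 genes passed adjustment in limma and 1.13% of all probes did. That share stands for 212 probes called upward and 50 downward, and limma called 49 and 6 without MH replicate 1 and 355 and 204 with an intensity trend. At an unadjusted p under 0.05 limma gave 2 of 10, A2m and Hpx, with 19.2% of all probes. The methods' t-test gave the same 2 genes without adjustment and 0 of 10 after it, and 17.5% of all probes passed it unadjusted. A2m and Hpx were also the genes whose groups did not overlap, a pattern found in 41.4% of all probes. The median log2 difference of the 10 genes was 0.12, beside -0.03 over all probes, and 6 were higher and 4 lower in sign.

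For SHPCs with BM-MCs against MHs, 0 of 10 genes passed adjustment in limma, with 0.338% of all probes. That share stands for 74 probes called upward and 4 downward, whereas leaving out BM-MC replicate 2, or either of control SHPC replicates 1 and 2, left 0 and 0, and an intensity trend gave 114 and 16. A2m alone had an unadjusted p under 0.05 in limma, where 13.3% of all probes had one, and the methods' t-test gave 0 of 10 with 9.24% of all probes. The groups overlapped for all 10 genes at their brightest probe, and did not for 32.3% of all probes. The median log2 difference was -0.02 over the 10 genes and 0.00 over all probes, with 5 higher and 5 lower in sign, of which Fgb, Fgg, Lcn2 and Alb turned lower with median scaling. Apart from A2m, the differences ran from -0.37 in Orm1 to 0.12 in Fgb. This comparison shares its MHs with the one above and its BM-MC samples with the first. Its groups lay in different array sets, so group and array set cannot be told apart in it.

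**Figure D4:**
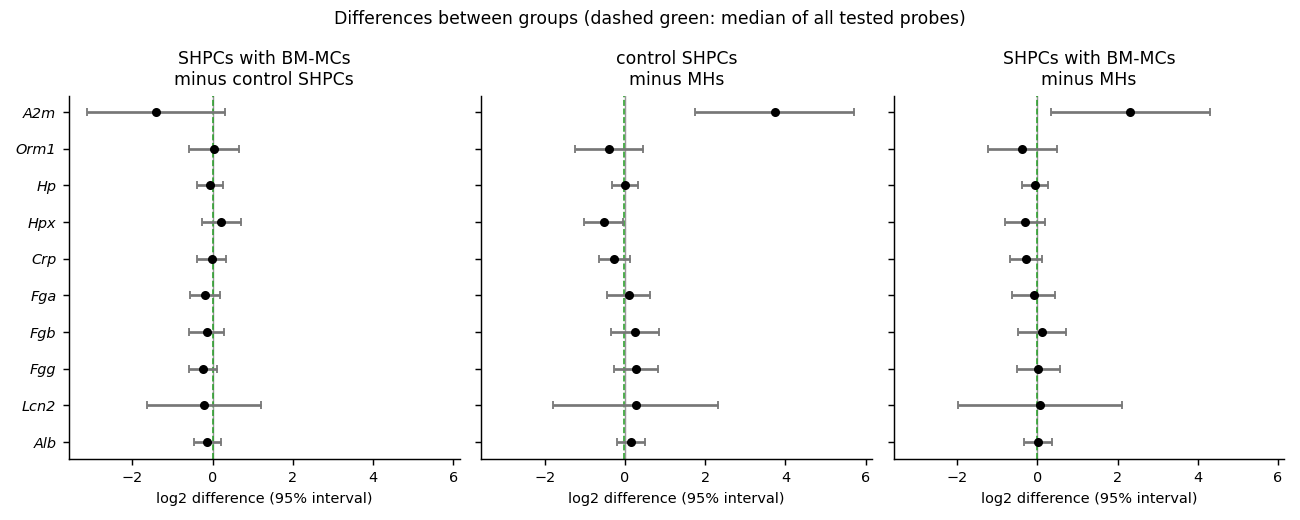
Log2 differences of the 10 genes (points, x axis) with 95% intervals from limma (bars) in the 3 comparisons; the grey line is 0 and the dashed green line the median of all tested probes. A2m stands at -1.41, 3.74 and 2.32, Lcn2 has wide intervals, and the other genes lie within 0.53 of 0.

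Other genes of the response were counted in 3 lists. Of 34 further genes listed as positive acute-phase genes 32 were tested, and 0 passed adjustment in limma in any comparison. At an unadjusted p under 0.05 there were 0 higher and 1 lower with BM-MCs against control SHPCs, 2 higher and 1 lower in control SHPCs against MHs, and 0 higher and 2 lower with BM-MCs against MHs, and the methods' t-test gave 1, 4 and 1 unadjusted and 0 adjusted. In the same order 16.6%, 19.2% and 13.3% of all probes passed limma unadjusted and 15.0%, 17.5% and 9.24% the methods' t-test. Their median log2 differences in these comparisons were -0.03, -0.06 and -0.05. Mt2A, a metallothionein, was at 5.64 to 6.46 with BM-MCs and 6.44 to 6.85 in control SHPCs, a log2 difference of -0.56 (adjusted p = 0.299 from limma). Cd14, a co-receptor for endotoxin, differed by -0.51 (adjusted p = 0.351 from limma). Pzp, a close relative of A2m, differed by -0.05 with BM-MCs and 0.00 in control SHPCs against MHs, and was named after its values were seen. Whether Pzp responds in the acute phase of the rat was not examined here.

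Of 16 negative acute-phase genes 15 were tested and 0 passed adjustment in limma. At an unadjusted p under 0.05 there were 0 with BM-MCs against control SHPCs, 1 higher and 2 lower in control SHPCs against MHs, and 2 higher and 1 lower with BM-MCs against MHs. The methods' t-test gave 0, 2 and 0 unadjusted and 0 adjusted. Over all probes the unadjusted shares were 16.6%, 19.2% and 13.3% in limma and 15.0%, 17.5% and 9.24% by the methods' t-test. The medians were -0.07, 0.03 and -0.01. Itih1, an inter-α-trypsin inhibitor chain, differed by 0.18 and Afm, which encodes afamin, by -0.23 with BM-MCs against control SHPCs (adjusted p = 0.561 and 0.564 from limma). Apoa2, an apolipoprotein of high-density lipoprotein, was named after its values were seen. It was at 6.90 to 7.60 in MHs and 5.11 to 5.88 in control SHPCs, a log2 difference of -1.68 (standard error 0.47, adjusted p = 0.145 from limma). With BM-MCs it was at 5.14 to 6.56. The other apolipoproteins of the list had the opposite sign in control SHPCs against MHs, 0.73 in Apoa1 and 0.51 in Apoa4 (adjusted p = 0.184 and 0.267 from limma).

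The signalling list held receptors and transcription factors that act on these genes, and 19 of 21 were tested, Socs1 and Osmr being too dim. None passed adjustment in limma, and at an unadjusted p under 0.05 there were 2 higher with BM-MCs against control SHPCs, 1 higher and 2 lower in control SHPCs against MHs, and 2 higher with BM-MCs against MHs. The methods' t-test gave 1, 3 and 2 unadjusted and 0 adjusted. These counts of 19 stand beside all-probe shares of 16.6%, 19.2% and 13.3% in limma and 15.0%, 17.5% and 9.24% by the methods' t-test. Socs3, the feedback inhibitor of STAT3 signalling, was at -0.34, 0.37 and -0.04 with BM-MCs and at -0.53, -0.50 and -0.67 in control SHPCs. The groups did not overlap, as in 24.7% of all probes, and the log2 difference was 0.56 (standard error 0.19, adjusted p = 0.253 from limma). Il6st, the signal-transducing chain of the interleukin-6 receptor, differed by 0.31 (standard error 0.11, adjusted p = 0.267 from limma). The medians of the list were 0.08, -0.15 and -0.02 in the comparisons in the order above, beside 0.02, -0.03 and 0.00 over all probes.

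**Figure D5:**
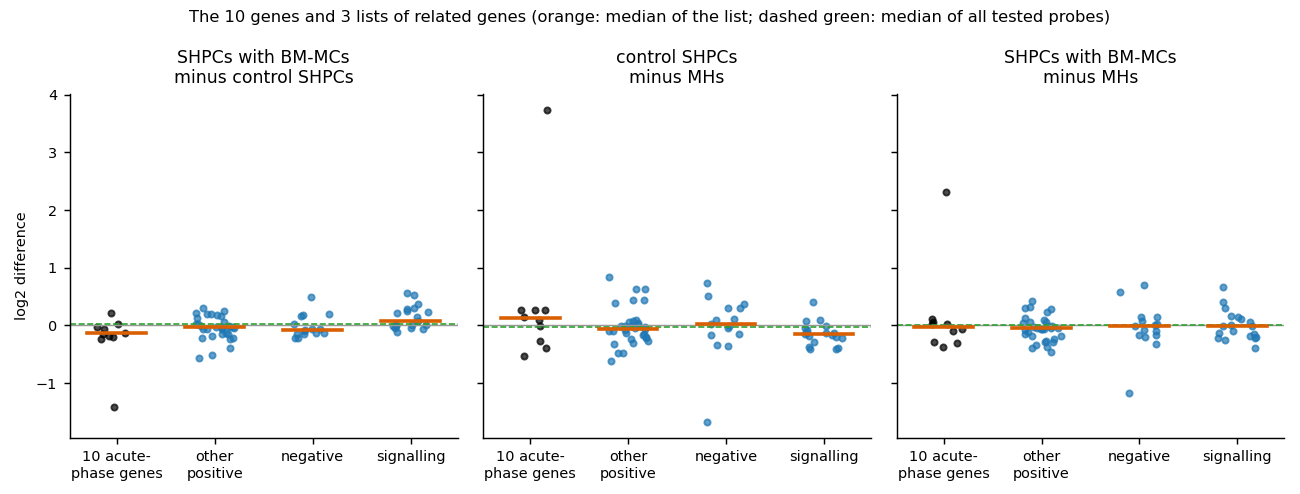
Log2 differences (y axis) of the 10 acute-phase genes (black) and of the tested genes of the 3 lists (blue) in the 3 comparisons; orange bars are medians of a list and the dashed green line is the median of all tested probes. The medians lie between -0.15 and 0.12, and A2m is the black point at 3.74 in control SHPCs against MHs.

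The captured tissue can hold cells other than hepatocytes, and in such samples fewer cells of a type and less RNA per cell cannot be told apart. Of 56 markers of 8 cell types 44 were tested and 0 passed adjustment in limma. With BM-MCs against control SHPCs 4 were higher and 8 lower at an unadjusted p under 0.05 in limma, where 16.6% of all probes passed, and 6 passed the methods' t-test unadjusted. In control SHPCs against MHs 8 were higher and 9 lower in limma, with 19.2% of all probes, and 9 passed the methods' t-test, and with BM-MCs against MHs 5 were higher and 4 lower, with 13.3% of all probes, and 3 passed the methods' t-test. In control SHPCs against MHs, where the A2m difference was widest, the 2 widest marker differences were biliary, Krt19 at 1.76 and Cldn4 at 1.68 (unadjusted p = 0.0165 and 0.00611, adjusted p = 0.179 and 0.133 in limma), and all 5 biliary markers were higher in sign. Krt19 and Cldn4 were dim in MHs, at mean log2 levels of -5.61 and -6.34, so the size and rank of their differences are uncertain. The other 6 markers higher at an unadjusted p under 0.05 were Tdo2 at 1.08, Otc at 1.03 and Cps1 at 0.92 (hepatocyte) and Dcn at 1.12, Col1a1 at 1.11 and Pdgfrb at 0.47 (stellate cell). The 9 lower ones were 5 of the 9 macrophage markers, the hepatocyte markers Cyp2e1, at -1.23, and Cyp1a2, at -0.77, the stellate cell marker Lrat, at -0.63, and the endothelial marker Stab2, at -0.48. With BM-MCs against MHs 4 stellate cell markers were among the higher ones, and the 4 lower ones were 3 macrophage markers and Cyp1a2. The genes named next have the lowest unadjusted p of their lists and do not stand for them. With BM-MCs against control SHPCs the log2 differences were -0.68 in Tdo2 and 0.57 in Cyp2e1 (hepatocyte), -1.84 in S100a9 and -1.30 in Retnlg (granulocyte), 0.55 in Cd163 and 0.37 in Clec4f (macrophage), 0.32 in Kdr and 0.37 in Stab2 (sinusoidal endothelium), 0.29 in Des and 0.24 in Pdgfrb (stellate cell), -1.40 in Cldn4 and -0.43 in Epcam (biliary), -1.46 in Hba1 and -1.64 in Hbb (erythroid) and 0.10 in Ptprc (lymphocyte). Their adjusted p from limma ran from 0.0676 to 0.772. In sign, 6 of the 10 hepatocyte, 5 of the 9 macrophage, 4 of the 5 endothelial, 6 of the 8 stellate cell and 1 of the 5 biliary markers (Sox9, at 0.62) were higher, and all 3 granulocyte and all 3 erythroid markers were lower. The mean log2 level of the 5 biliary markers, of which 2 were above background on all 7 arrays, was -5.20 to -4.96 in MHs, -4.23 to -3.87 in control SHPCs and -4.80 to -4.02 with BM-MCs, and their part in the A2m values was not tested. The group order was that of A2m, but within the BM-MC group the order was not: biliary markers were at -4.02, -4.80 and -4.63 in replicates 1 to 3, highest where A2m was lowest. That of the 3 erythroid markers was -0.61 to 0.39, 0.00 to 1.97 and -0.92 to -0.48 in the same groups. That of the 9 macrophage markers was 1.27 to 1.54, 0.56 to 1.08 and 0.73 to 1.24. That of the 8 stellate cell markers was -1.89 to -1.54, -1.48 to -1.35 and -1.51 to -1.07, lower in both MHs than in every SHPC sample, and its part in the A2m values was not tested.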

How the data were processed

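RNA of 8 samples was hybridised to Agilent SurePrint G3 Rat arrays. The authors deposited the processed signal of each spot, an intensity from which Agilent Feature Extraction 10.7 (submitters' processing notes) had subtracted background; no scaling between arrays was stated, and the deposited value table holds the same intensity. For control SHPC replicate 2 the scanner output covers 20903 of 62976 features, so the value table was used. Each signal was divided by its array's 75th percentile before taking log2. Outlier-flagged and control spots were dropped and repeated spots averaged. A probe was kept if it was well above background on 3 or more of the 7 arrays whose marks are complete, which left 23111. These were fitted with limma (version 3.58.1, R 4.3.3), and p-values were adjusted over all of them by the Benjamini-Hochberg method. The 6 SHPC samples were fitted alone for the effect of BM-MCs, and all 8 samples for the comparisons with MHs. The fit was checked on simulated data. The study's methods name Student's t test on the array values, run here as an alternative. Array gene names were updated through RefSeq accessions where these matched.

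Named by rule were the 10 genes with all their probes, from each list up to 4 genes that passed adjustment or, where none did, up to 2 with the lowest unadjusted p for the effect of BM-MCs, and the 5 genes most like the member of widest range. Other list genes were named outside this rule, after their values were seen. Among them are Pzp, Apoa1, Apoa2, Apoa4, Sox9 and the further markers given for the comparisons with MHs. Kng1l1, Mt1a, A1i3, Stab1, Clec4g and Cd79a were not matched to a probe. The members and lists were chosen with earlier results of these data known. The number of arrays limits the precision.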

Additional observations from a re-analysis of the deposited data

How the results depend on the processing

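The number of the 10 genes that passed an adjusted p under 0.05 was 0 in every comparison and under every alternative except in control SHPCs against MHs, where it was 1 (A2m) with an intensity trend in limma and 2 (A2m and Hpx) by the methods' t-test without adjustment; the cause was not tested. A2m kept its sign in all alternatives. Of 667 recomputed differences of single genes 606 kept their sign and call, and 58 changed sign, over 19 of 30 differences, none of them above 0.40 log2 units in size. Median scaling moved the median of all probes from 0.02 to -0.17 with BM-MCs against control SHPCs and from 0.00 to -0.19 with BM-MCs against MHs. Same-numbered samples of SHPCs with BM-MCs and control SHPCs had deviations that correlated at 0.13, 0.078 and 0.17. Differently numbered pairs ran from -0.15 to 0.082, the highest being control SHPC replicate 2 with BM-MC replicate 1. The correlations are weak and no label states a pairing, so whether same-numbered samples belong together is not known. With the replicate number as a block 0 genes passed in each comparison.

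With BM-MCs against control SHPCs the differences that changed sign were Orm1 with median scaling (-0.16), Crp with quantile normalization (0.11), Hp with normexp and quantile normalization together on 7 arrays (0.16), Lcn2 with a floor for dim spots (0.042), and Fga (0.0047), Fgb (0.088) and Lcn2 (0.35) with the array set as a block. In control SHPCs against MHs they were Hp (0.19) and Lcn2 (-0.011) with that combination and Lcn2 with the floor (-0.16). With BM-MCs against MHs they were Fgb (-0.082), Fgg (-0.17), Lcn2 (-0.13) and Alb (-0.18) with median scaling, Lcn2 with quantile normalization (-0.19), Fgg (-0.054), Lcn2 (-0.017) and Alb (-0.061) with no scaling, Lcn2 with the floor (-0.12), Hp (0.35) and Lcn2 (-0.080) with that combination, Alb with the replicate block (-0.029), Orm1 (0.25), Fga (0.20) and Alb (-0.15) with the array set as a block, and Fga with the median over its probes (0.24). Leaving out each sample in turn changed other signs. With BM-MCs against control SHPCs the values then ran from -0.18 to 0.23 for Orm1, -0.14 to 0.023 for Hp, -0.26 to 0.0056 for Fgb, -0.14 to 0.064 for Crp and -0.54 to 0.46 for Lcn2. In control SHPCs against MHs they ran from -0.92 to 0.13 for Orm1, -0.061 to 0.069 for Hp, -0.24 to 0.44 for Fga, -0.10 to 0.62 for Fgb, -0.10 to 0.64 for Fgg and -1.06 to 1.60 for Lcn2. With BM-MCs against MHs they ran from -0.90 to 0.15 for Orm1, -0.12 to 0.016 for Hp, -0.43 to 0.25 for Fga, -0.24 to 0.48 for Fgb, -0.34 to 0.40 for Fgg, -1.27 to 1.39 for Lcn2 and -0.029 to 0.094 for Alb. Where 1 MH is left, it is assumed to vary like the other groups. With only probes above background on all 7 arrays, Lcn2 was not tested.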
